A study of Homo sapiens and Mus musculus with 16 samples.

Results

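The 10 genes described here are the annotated copies of the human 45S and 28S ribosomal RNAs, RNA45SN1 to RNA45SN5 and RNA28SN1 to RNA28SN5. They were taken by symbol, with earlier results of these data known, and are 10 of 22286 rows of the human count table. The mouse table of 15881 rows holds a single counterpart, Rn45s. Each copy was followed, and so was the sum of the 5 copies of each class, called the 45S sum and the 28S sum below. P-bodies are cytoplasmic granules of RNA and protein. The study sorted them by the fluorescence of GFP-LSM14A, a tagged P-body protein, and sequenced them beside the cytoplasm of the same kind of cell. In the paper's methods that cytoplasm is a pellet, made after a spin to remove nuclei, from which the P-bodies were then sorted. It therefore still holds P-bodies and is not the whole cytoplasm.

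All groups carried GFP-LSM14A, and no sample was left untagged or treated against a control. HEK293T, a human embryonic kidney line (HEK293T-LSM14a-GFP), and mESC, mouse embryonic stem cells kept in serum-LIF (KH2-LSM14a-GFP), received the tag by lentivirus. Liver bud progenitors and neurons at day 20 were both differentiated from UCLA4-LSM14a-GFP, a human embryonic stem cell line with the tag at the AAVS1 locus. Each of the 4 cell types had 2 P-body and 2 cytoplasm libraries, 16 in all, of which 12 were human. The labels give total RNA, primed at random, for HEK293T and mESC, and polyA RNA for liver bud progenitors and neurons. Cell type and library preparation therefore cannot be told apart between these 2 pairs. The tag sits in 1 line per cell type, and nothing in the labels says that the 2 libraries of a group came from separate cultures. The p-values below therefore cover only spread between libraries. For the edgeR tests that spread is estimated by sharing it among genes.

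RNA polymerase I transcribes the 45S precursor in the nucleolus. Cleavage and trimming remove its spacers and release the 18S RNA of the small ribosomal subunit and the 5.8S and 28S RNAs of the large subunit. The mature RNAs leave the nucleus in ribosomal subunits, whereas the precursor and its spacers are nuclear in a healthy cell. None of these RNAs ends in the long poly(A) tail that most mRNAs carry. A 45S gene contains the mature 18S, 5.8S and 28S sequences, so a read from a mature part fits a 45S row as well as the row of the mature RNA, and only a spacer read is particular to 45S.

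The first 30 bases of each class are shown because they mark where the rows begin, at the precursor's own 5′ end or at a cut. They read the same in all 5 copies and were read from hg38, in the copies at chr21:8433222-8433251, chr21:8436876-8436905 and chr21:8441146-8441175, with no letter in capitals.
RNA45SN1 start: gctgacacgctgtcctctggcgacctgtcg
RNA18SN1 start: tacctggttgatcctgccagtagcatatgc
RNA28SN1 start: cgcgacctcagatcagacgtggcgacccgc

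On hg38 RNA45SN1, RNA45SN2 and RNA45SN3 lie on chromosome 21, at 8433222 to 8446572, 8205988 to 8219302 and 8389035 to 8402343. RNA45SN4 lies on an unlocalized scaffold of chromosome 22 (122273 to 135645) and RNA45SN5 on an unplaced scaffold (105424 to 118780). The 45S rows are 13309 to 13373 bases long and the 28S rows 5054 to 5077. In RNA45SN1 the 18S occupies bases 3655 to 5523, the 5.8S bases 6601 to 6757 and the 28S bases 7925 to 12990. Of the stretches of 150 bases (the read length) in RNA45SN1, 50.3% lie wholly inside one of the mature genes.

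The copies are close to each other. Pairs of 45S copies were 99.16% to 99.93% identical and pairs of 28S copies 99.23% to 99.88%, with no identical pair among 10. Of 10 pairs of 18S copies 4 were identical and the others differed by 1 base. No stretch of 150 bases belongs to RNA28SN1 or RNA28SN5 alone, against 432 in RNA28SN2, 413 in RNA28SN3 and 604 in RNA28SN4, of 4905 to 4928 in each. RNA28SN3 stands apart in the window below, shown because the counts of this copy differ most between replicates. Capitals mark the 6 positions at which the copies differ, and the windows lie at chr21:8442226-8442255 for RNA28SN1 and chr21:8397996-8398025 for RNA28SN3. RNA28SN2, RNA28SN4 and RNA28SN5 read as RNA28SN1 does.
RNA28SN1: cctcccacggcgCgaCCGctCtcccacccC
RNA28SN3: cctcccacggcgAgaAGActGtcccacccA

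The libraries held 6368953 to 17972284 counts, so that 3 counts correspond to 0.167 to 0.471 CPM (a count scaled to 1e6 counts in the library). All ribosomal RNA rows together took 3.09% to 24.9% of a library. The labels matched their markers in part. All 8 neuronal markers reached 20 CPM in neuron cytoplasm, 7 of 8 mouse pluripotency markers did so in mESC, and 6 of 10 liver bud markers did so in liver bud progenitors, where HHEX had 1.53 CPM. All 7 human pluripotency markers were also above 20 CPM in liver bud progenitors, with a median of 85.8. Replicates differed by more than sampling noise in every group (chi-square per gene of 2.005 to 21.1), and most in neuron P-bodies, whose value was 21.1 against at most 5.45 elsewhere.

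The 28S sum was lower in P-bodies than in cytoplasm in all 3 human cell types, by the widest margin in HEK293T. There it made up 1.52% and 1.44% of counts in the P-body libraries and 6.73% and 6.72% in cytoplasm. In liver bud progenitors the P-body libraries held 6.11% and 6.21% and the cytoplasm 8.93% and 9.65%. In neurons they held 6.75% and 5.77%, against 12.04% and 10.4%. Every P-body library lay below both cytoplasm libraries of its cell type, as did 37.1%, 38.9% and 25.7% of all genes tested in these cell types. The log2 change, P-body against cytoplasm, was -2.06 ± 0.03 (SE, n = 2 a group) in HEK293T, -0.41 ± 0.02 in liver bud progenitors and -1.01 ± 0.08 in neurons (edgeR quasi-likelihood test, adjusted p = 1.39e-54, 1.93e-31 and 6.41e-07). A share of counts is relative, so less 28S and more of other RNA in a fraction cannot be told apart.

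A fall of that size was uncommon among all genes in HEK293T and less so elsewhere. Only 1.13% of the genes tested were called lower by as much as the 28S sum or more in HEK293T, 15.5% in liver bud progenitors and 6.4% in neurons. For scale, 22.8%, 17.1% and 14.1% of all genes tested were called lower in P-bodies in these cell types at an adjusted p under 0.05 (in either direction 42%, 38.5% and 28.7%), and the median gene changed by -0.01, -0.09 and 0.19 on the log2 scale.

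**Figure D1:**
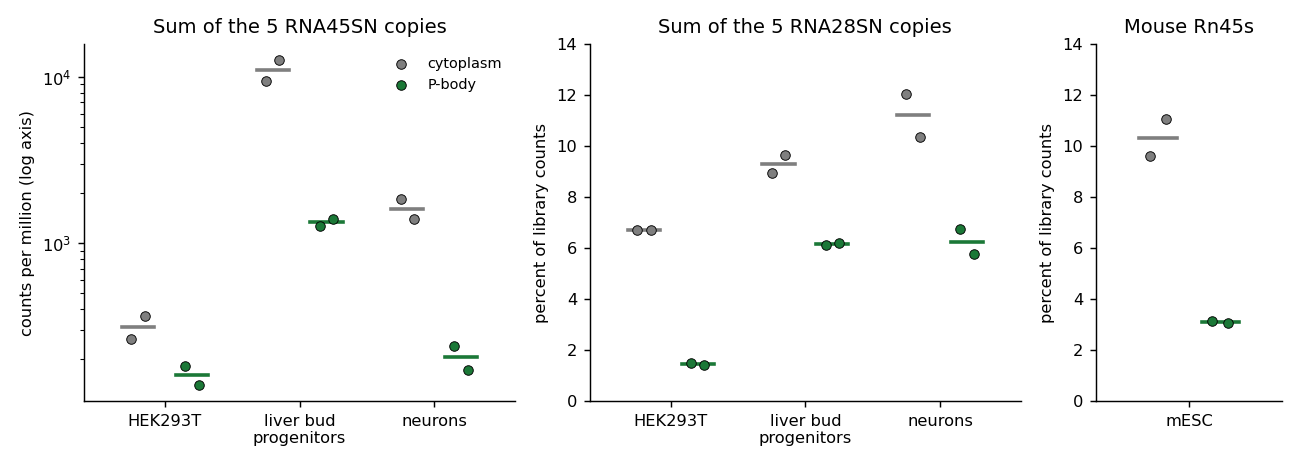
Level of the 45S sum in CPM (left, log axis), of the 28S sum in percent of library counts (middle) and of mouse Rn45s in percent of library counts (right). Points are libraries and bars the mean of 2. In every cell type both P-body libraries (green) lie below both cytoplasm libraries (grey).

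The 45S sum was a small share of the counts everywhere and was also lower in P-bodies. In HEK293T it measured 182 and 140 CPM in P-bodies and 266 and 364 in cytoplasm. Liver bud progenitors had the highest level, 1270 and 1404 CPM in P-bodies and 9463 and 12561 in cytoplasm. Neurons had 242 and 172 CPM in P-bodies and 1832 and 1388 in cytoplasm. No P-body library reached a cytoplasm library of its cell type. The log2 change was -0.84 ± 0.08 in HEK293T, -2.86 ± 0.05 in liver bud progenitors and -3.13 ± 0.16 in neurons (SE, n = 2 a group; edgeR adjusted p = 1.35e-14, 2.77e-61 and 1.53e-08).

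HEK293T, with the largest fall of the 28S sum, had the smallest fall of the 45S sum. In neurons 0.204% of the genes tested were called lower by as much or more, in liver bud progenitors 0.884% and in HEK293T 15.6%. Per kilobase of gene the 45S sum stood at 18.1 and 12.9 CPM in neuron P-bodies against 137 and 104 in neuron cytoplasm, and the 28S sum at 13322 and 11400 against 23770 and 20466.

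The ratio of 28S to 45S counts moved in opposite directions. In HEK293T it was 83.5 and 103 in P-bodies and 253 and 185 in cytoplasm, lower in both P-body libraries. In liver bud progenitors it was 48.1 and 44.2 in P-bodies and 9.44 and 7.68 in cytoplasm. In neurons it was 279 and 335 against 65.7 and 74.7. Both of these cell types had the higher ratio in P-bodies, without overlap. Per kilobase the ratios were 127 and 117 in liver bud P-bodies against 24.9 and 20.2 in the cytoplasm. The 45S sum was 9.58% and 11.5% of the counts of the 10 copies in liver bud cytoplasm and 0.298% to 2.21% in the other 10 human libraries. Total RNA libraries from HEK293T stand on one side and polyA libraries from UCLA4 derivatives on the other, so line and library preparation cannot be told apart here. The ratio also depends on how reads from the mature parts were divided between the 45S and 28S rows. Of the stretches of 150 bases in RNA45SN1, 50.3% lie inside a mature gene, and that division was not tested.

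**Figure D2:**
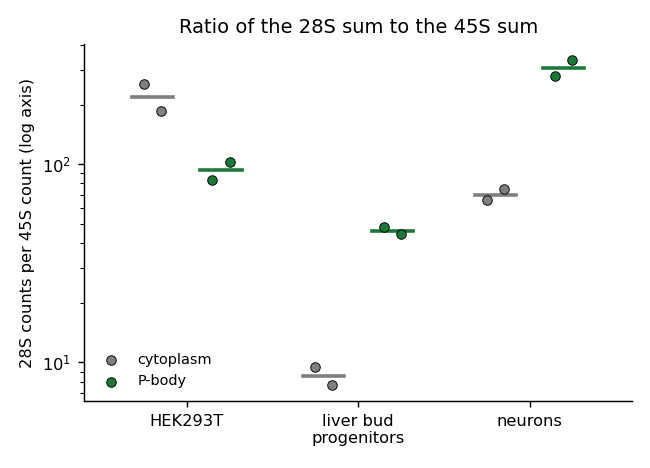
Counts of the 28S sum per count of the 45S sum in each human library (log axis), with the mean of 2 libraries as a bar. P-body libraries (green) are lower than cytoplasm libraries (grey) in HEK293T and higher in liver bud progenitors and neurons.

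The same values were tested across the 3 human cell types with an exact permutation of the fraction labels within each cell type, which allows no two-sided p under 0.00926. The mean log2 difference in the share of counts was -2.32 for the 45S sum, -1.21 for the 28S sum and -1.25 for all 10 copies, each with p = 0.00926 and, over the 4 values tested, an adjusted p of 0.0123 (exact permutation test). The direction held in 6 of 6 P-body libraries for each. The log2 ratio of 28S to 45S had a mean difference of 1.11 with an exact permutation p of 0.111. Within a single cell type the smallest such p is 0.3333.

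Rn45s, the mouse 45S precursor, is annotated as 1 row and takes the reads of the mature 18S and 28S too. In mESC it made up 3.16% and 3.09% of counts in P-bodies and 9.63% and 11.05% in cytoplasm. Its log2 change was -1.32 ± 0.04 (SE, n = 2 a group; edgeR adjusted p = 1.60e-18). Both P-body libraries lay below both cytoplasm libraries, as for 58.4% of all mouse genes tested. Of these genes 20.6% were called lower in P-bodies and 46.4% in either direction, and 6.27% were lower by as much as Rn45s or more. For the share of calls that were lower, the choice of scaling mattered. It was 44.4% in mESC, and 71.8% when libraries were scaled by their totals only, which moved the median gene by -0.40 on the log2 scale. The same change moved it to 55.9%, from 44.3%, for liver bud progenitors and to 38%, from 49.2%, for neurons, with median shifts of -0.19 and 0.16. Rn45s and the 6 human class sums were lower in P-bodies under each scaling tried.

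2 other mouse rows share ribosomal RNA sequence. Lars2, the mitochondrial leucyl-tRNA synthetase, holds in its transcript a run of 159 bases that is identical to bases 4371 to 4529 of human 28S. The start of that run is shown because reads from it could come from either RNA, and it carries no capitals.
Lars2: gtgtcagaaaagttaccacagggataactg
Lars2 changed by -1.48 ± 0.05 and Mir6236, a microRNA gene that shares 52 bases with 28S, by -1.91 ± 0.21 (SE; edgeR adjusted p = 2.06e-17 and 5.44e-08). Mir6236 had only 36 and 35 counts in P-bodies and 116 and 144 in cytoplasm. Rn45s had 52.6 and 52.8 counts per Lars2 count in P-bodies and 48.2 and 46.9 in cytoplasm, a ratio that varied far less than either gene. Which RNA the Lars2 counts came from was not tested.

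How the counts of a class divided among its 5 copies differed by class. Each 18S copy held 19.9% to 20.0% of the 18S counts in every human library, and the 2 replicates of a group never differed by more than 0.0443 points. The 28S copies did not divide evenly, with shares of 0.452% to 44.996%, and 11 of 30 pairs of replicates differed by more than 5 points. The 45S shares ran from 0 to 55.6%, and 7 of 30 pairs differed by more than 5 points.

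RNA28SN3 gave the widest gap. In neuron P-bodies it had 2636 counts in replicate 1 and 206473 in replicate 2, which is 0.452% and 37.8% of the 28S counts. The 28S sum of the same libraries was 582823 and 546517. The class sums of the replicates were thus far closer than the counts of the copy. In the 2 neuron cytoplasm libraries RNA28SN3 had 250372 and 165923 counts. RNA45SN3 likewise had 53 and 2170 counts in liver bud P-bodies and 0 in all 4 neuron libraries. RNA45SN1 and RNA45SN5, to neither of which a stretch of 150 bases is unique, had 20660 and 20557 counts in the first liver bud cytoplasm library but 554 and 1000 in the first neuron P-body library and 908 and 377 in the second. The values of a single copy are therefore uncertain, and those of the class sums do not depend on the division within a class.

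**Figure D3:**
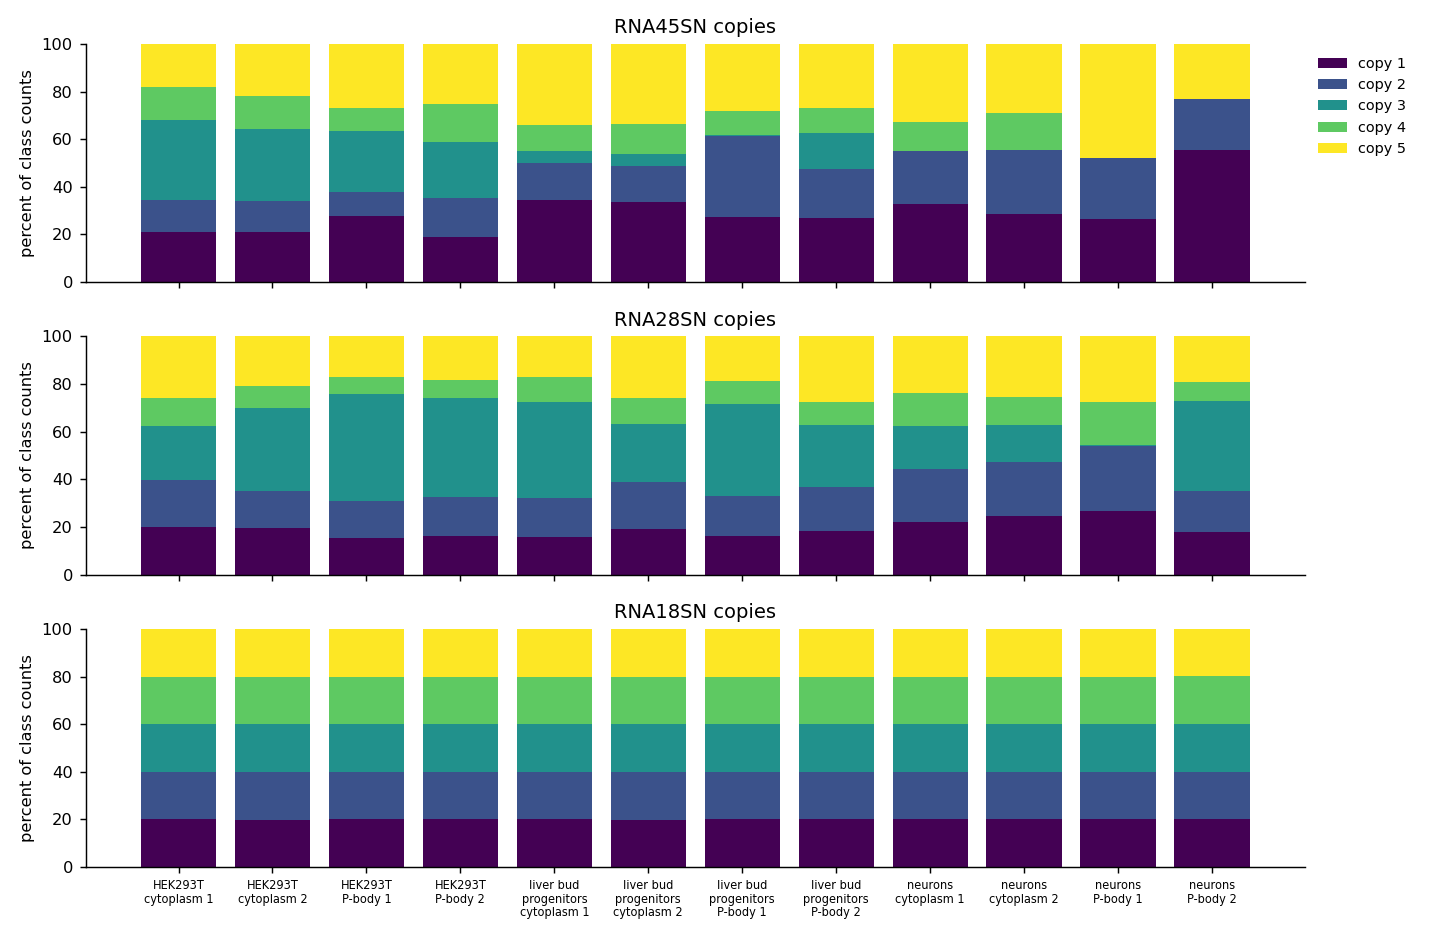
Share of each class's counts held by each of its 5 copies in the 12 human libraries, in percent. The 18S copies (bottom) take equal parts in every library, whereas the 45S (top) and 28S (middle) copies vary between replicates, most for RNA28SN3 (copy 3) in neuron P-bodies.

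With that limit, every copy that could be tested had a negative log2 change. In HEK293T all 5 copies of 45S and all 5 of 28S were called lower in P-bodies, where 22.8% of all genes were. The 45S copies changed by -0.47 (RNA45SN5) to -1.20 (RNA45SN3) and the 28S copies by -1.47 (RNA28SN3) to -2.53 (RNA28SN4). RNA45SN5 overlapped between fractions, at 48.8 and 35.2 CPM in P-bodies and 48.4 and 79.0 in cytoplasm. Its call was lost without the second cytoplasm library, where its change was -0.08, and in DESeq2 (adjusted p = 0.444), as was that of RNA45SN1 in DESeq2 (adjusted p = 0.334). Without the second P-body library neither copy was called, with changes of -0.26 for RNA45SN1 and -0.25 for RNA45SN5.

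The 10 copies were again all called lower in liver bud progenitors, against 17.1% of all genes. RNA45SN1 fell from 3244 and 4213 CPM in cytoplasm to 345 and 376 in P-bodies, a log2 change of -3.19 ± 0.06. RNA45SN4 and RNA45SN5 had changes of -3.04 and -3.16, and RNA45SN2 one of -2.04. RNA45SN3 had -2.17 ± 0.32, which became -1.22 without the first P-body library and -6.46 without the second. The 28S copies lay between -0.30 (RNA28SN5) and -0.56 (RNA28SN4). RNA28SN5 overlapped, at 11421 and 17184 CPM in P-bodies and 15057 and 25044 in cytoplasm, and its change was 0.08 without the second cytoplasm library. DESeq2 did not call RNA45SN3, RNA28SN3 and RNA28SN5 there (adjusted p = 0.351, 0.451 and 0.586).

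In neurons RNA45SN3 could not be tested, and the other 4 copies of 45S were called lower, where 14.1% of all genes were. RNA45SN1, RNA45SN2 and RNA45SN5 changed by -2.82 ± 0.20, -3.16 ± 0.19 and -2.86 ± 0.35. RNA45SN4 had 2486 and 2247 counts in cytoplasm and 0 in both P-body libraries. At 3 counts per library its row is at least 653-fold lower in share of counts. On that scale the 45S sum of the same libraries averaged 207 CPM in P-bodies and 1610 in cytoplasm. In the edgeR fit, which scales libraries by TMM, the 45S sum was 8.74-fold lower. How far these zeros reflect the division of reads among copies was not tested. Of the 28S copies 4 were called lower, with changes of -0.96 to -1.05. These sizes moved with the P-body library left out. Without the first, RNA28SN1, RNA28SN2, RNA28SN4 and RNA28SN5 changed by -1.51, -1.53, -1.81 and -1.49, and without the second by -0.69, -0.60, -0.43 and -0.71, all still called. RNA28SN3 had -0.96 ± 1.00 and was not called (edgeR adjusted p = 0.504), and its change was 0.02 without the first P-body library and -6.11 without the second. DESeq2 called 5 of the 9 tested copies lower in neurons. Fitting all human libraries at once, which shares their spread, left 6 copies called in HEK293T and 6 in liver bud progenitors.

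**Figure D4:**
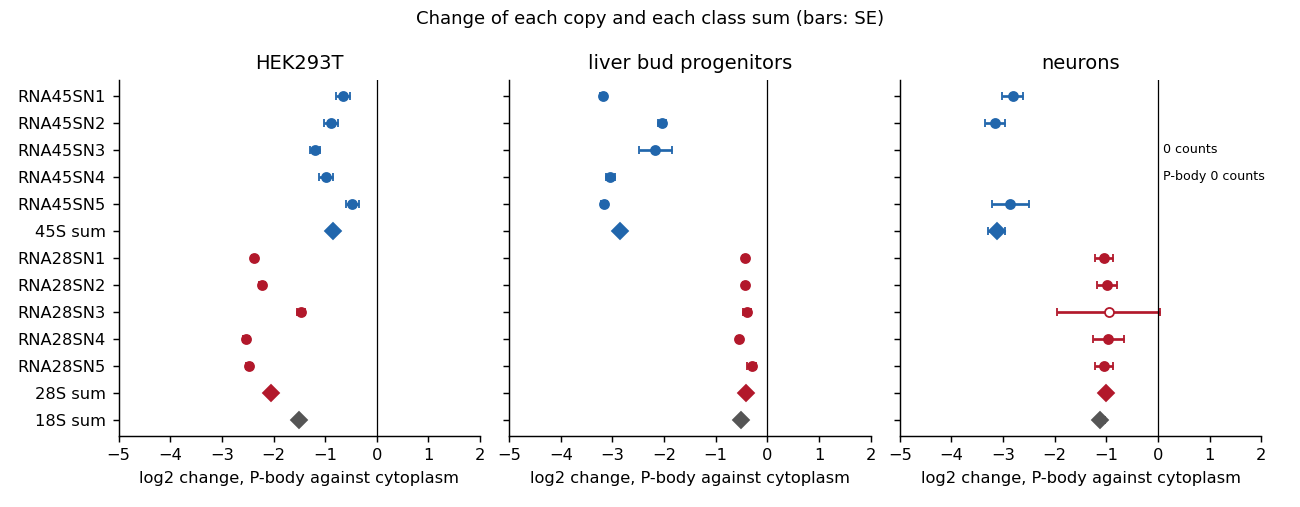
Log2 change, P-body against cytoplasm, of each copy (circles) and each class sum (diamonds) in the 3 human cell types, with SE as bars. Filled symbols were called lower at an adjusted p under 0.05. RNA28SN3 in neurons, open, has an SE of 1.00. RNA45SN3 had 0 counts in neurons, and RNA45SN4 had 0 in neuron P-bodies.

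Liver bud progenitors and neurons came from the same line and the same kind of library, so their counts were compared directly. Both are labelled polyA RNA, and none of these RNAs ends in a long poly(A) tail. A difference in counts therefore need not be one in the ribosomal RNA content of the cells. In cytoplasm the 45S sum was lower in neurons by a log2 difference of -2.44 ± 0.15, and the 28S sum was higher by 0.60 ± 0.07 (SE, n = 2 a group; edgeR adjusted p = 6.56e-10 and 2.81e-06), where 22.5% of all genes tested were called lower and 20.4% higher. In P-bodies the 45S sum was lower in neurons by -2.84 ± 0.16 (edgeR adjusted p = 1.45e-10), as 25.5% of all genes tested were, with 22% higher. The 28S sum differed there by -0.12 ± 0.07 (edgeR adjusted p = 0.19). Without the first neuron P-body library that difference was -0.21 (adjusted p = 2.36e-04). In bulk fractions like these, fewer cells of a type and less RNA per cell cannot be told apart.

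The P-body change of the 28S sum was more negative in neurons than in liver bud progenitors by -0.72 ± 0.10 (SE, test of the interaction over 8 libraries; edgeR adjusted p = 1.12e-04), where 10.5% of all genes tested were called in that direction and 7.83% in the other. When libraries were scaled by their totals only, the difference was -0.25 (adjusted p = 0.0709) and the median of all genes moved by 0.47. That of the 45S sum was -0.39 ± 0.21 and did not pass the threshold (edgeR adjusted p = 0.218). It was -0.64 without the first neuron P-body library (adjusted p = 3.13e-05) and 0.08 with scaling by totals.

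The 18S sum, the small subunit's RNA, was lower in P-bodies in the same 3 cell types. It made up 3.22% and 2.87% of counts in HEK293T P-bodies against 9.87% and 9.18% in cytoplasm, 6.57% and 6.16% against 10.54% and 10.2% in liver bud progenitors, and 6.64% and 5.63% against 12.7% and 10.98% in neurons. Its log2 changes were -1.52 ± 0.03, -0.52 ± 0.02 and -1.12 ± 0.08 (SE; edgeR adjusted p = 2.06e-47, 2.07e-44 and 2.15e-07). The ratio of 28S to 18S counts was 0.471 and 0.501 in HEK293T P-bodies and 0.682 and 0.733 in its cytoplasm, the only pair of fractions in which P-bodies had the lower ratio without overlap. In liver bud progenitors it was 0.930 and 1.01 against 0.847 and 0.946, which overlap. In neurons it was 1.02 and 1.03 against 0.948 and 0.944. The interaction between neurons and liver bud progenitors for the 18S sum, from a table with the 18S copies summed as well, was -0.60 ± 0.11 (edgeR adjusted p = 0.00117). No other scaling was tried for it.

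The short ribosomal RNAs were barely counted. The 5.8S, cut from the same precursor as the 28S, had counts in 8 library and copy pairs only, the highest being 319 for RNA5-8SN2 in the second neuron cytoplasm library. Where counted, they fell on a single copy per library. RNA5S4, of the separately transcribed 5S RNA, had 10 and 12 counts in neuron cytoplasm and 0 in the other 10 human libraries. The list of other ribosomal RNA genes, which holds 10 rows, had 6 lower and 1 higher of 7 tested in HEK293T, 5 and 1 of 6 in liver bud progenitors and 8 and 1 of 9 in neurons, and the rows beyond 18S rest on these few counts. Among all genes tested 22.8%, 17.1% and 14.1% were lower in these cell types and 19.3%, 21.4% and 14.6% higher. The counts of higher rows were thus near the share over all genes.

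Genes that act on ribosomal RNA were counted beside it, as mRNAs. Of 18 RNA polymerase I genes tested (subunits and initiation factors), 6 were lower and 9 higher in HEK293T P-bodies, 5 and 10 in liver bud progenitors, 4 and 3 in neurons and 5 and 6 in mESC. The median changes were 0.20, 0.63, -0.25 and -0.14, against -0.01, -0.09, 0.19 and -0.11 for all genes tested. Scaling by totals gave 7 lower and 6 higher in HEK293T and 11 lower and 4 higher in mESC, and the lower count in mESC was 2 without the second P-body library and 3 without the second cytoplasm library. For comparison, 19.3%, 21.4%, 14.6% and 25.8% of all genes were called higher in HEK293T, liver bud progenitors, neurons and mESC. The shares called lower were 22.8%, 17.1%, 14.1% and 20.6%. In neurons and mESC the counts in both directions were near the share over all genes. TTF1, the terminator of polymerase I transcription, rose by 1.35 ± 0.07 in HEK293T, 1.09 ± 0.10 in liver bud progenitors and 1.90 ± 0.19 in neurons (edgeR adjusted p = 1.09e-24, 4.51e-15 and 7.05e-06). POLR1A, the largest subunit, fell by 0.96 in liver bud progenitors and by 0.59 in neurons, and mouse Polr1a by 0.21. POLR2E, a subunit shared by the RNA polymerases, fell by 1.63 in HEK293T and by 1.45 in neurons.

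Of 80 genes of ribosomal RNA processing, 40 were higher and 29 lower in HEK293T P-bodies. The counts were 42 and 14 in liver bud progenitors, 29 and 11 in neurons and 32 and 18 in mESC. Median log2 changes were 0.28 in HEK293T and 0.43, 0.01 and -0.05 in these. The median of all genes tested was -0.01 in HEK293T and -0.09, 0.19 and -0.11 in the others. Over all genes tested 19.3%, 21.4%, 14.6% and 25.8% were higher and 22.8%, 17.1%, 14.1% and 20.6% lower in the 4 cell types in that order, so that the counts of lower genes in liver bud progenitors, neurons and mESC were near the share over all genes. With a library left out the lower count ran from 4 to 21 in neurons, with 4 without the first cytoplasm library and 18 and 21 without the first and second P-body library, and from 12 to 19 in mESC. Scaling by totals gave 32 higher and 21 lower in liver bud progenitors and 21 higher and 48 lower in mESC. NPM1, nucleophosmin, rose by 1.48 ± 0.05 in liver bud progenitors, 1.80 ± 0.10 in neurons and, as Npm1, 1.21 ± 0.03 in mESC (SE; edgeR adjusted p = 2.28e-35, 5.30e-08 and 3.51e-20). In HEK293T UTP14A and NOP58, both of the early processing complexes, rose by 1.39 and 1.32. FBL, the methyltransferase fibrillarin, fell there by 1.53, and PELP1, of late large-subunit maturation, fell by 1.45 in liver bud progenitors, by 1.08 in neurons and by 0.83 as Pelp1 in mESC.

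mRNAs of the cytosolic ribosomal proteins did not follow the ribosomal RNA in every cell type. In HEK293T 80 of 82 were lower in P-bodies and 0 higher, with a median of -1.62, and in mESC 73 of 83 were lower and 1 higher, with a median of -0.67. In neurons 38 of 82 were lower and 2 higher, with a median of -0.48. Without the first or the second neuron cytoplasm library 21 and 26 of them were called. Liver bud progenitors had 0 lower and 72 of 82 higher, with a median of 0.94, in the same libraries in which the 28S sum was lower. Among all genes tested 22.8% were lower in HEK293T, 20.6% in mESC, 14.1% in neurons and 17.1% in liver bud progenitors. The shares called higher were 19.3%, 25.8%, 14.6% and 21.4% in that order. Where edgeR called 0 of the ribosomal protein genes or of the nuclear RNAs below, 0 passed an unadjusted p of 0.05 and DESeq2 called 0. RPS12 and RPL24 fell by 2.89 and 2.54 in HEK293T. RPL6 and RPL4 rose by 1.67 and 1.15 in liver bud progenitors (edgeR adjusted p = 3.06e-38 and 2.99e-33).

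Nuclear RNAs were counted in the libraries of both fractions. The 17 nuclear noncoding RNAs in the human table summed to 8843 and 9968 CPM in HEK293T cytoplasm and 2159 and 2291 in P-bodies. For liver bud progenitors the sums were 4587 and 4832 against 2297 and 2279, in neurons 7866 and 8190 against 3482 and 3619, and in mESC, with 6 in the table, 790 and 810 against 631 and 636. Scaled by library totals, as CPM are, the sum was lower in P-bodies in each cell type, without overlap. In mESC such scaling moved the median gene by -0.40 on the log2 scale. Malat1, with 475 and 459 CPM in mESC P-bodies against 524 and 537 in cytoplasm, was called higher by 0.22 ± 0.04 in edgeR. In HEK293T the gap in the sum was the gap of a single gene, RN7SK, which holds back transcription elongation. RN7SK had 1570 and 1679 CPM in P-bodies against 8226 and 9357 in cytoplasm, a change of -2.31 ± 0.05. The other 16 genes summed to 589 and 612 CPM in HEK293T P-bodies and 617 and 611 in cytoplasm, and overlapped. Without RN7SK the sums were still apart in liver bud progenitors, at 1379 and 1332 against 3459 and 3544, and in neurons, at 933 and 1003 against 2017 and 2114. RN7SK changed by -1.37 ± 0.06 in neurons. Of the members tested, 4 of 17 were lower and 3 higher in HEK293T, with a median log2 change of 0.13, where 22.8% of all genes were lower and 19.3% higher, so that both counts were near the share over all genes. The higher count was 1 without the second P-body library and with scaling by totals. In liver bud progenitors 10 of 17 were lower, against 17.1% of all genes, and in neurons 6 of 16, against 14.1%, with 0 higher in both. In mESC 3 of 6 were lower, against 20.6%, and 1 higher, against 25.8%, and with scaling by totals 6 were lower and 0 higher.

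The long nuclear RNAs differed in direction between cell types. NEAT1, the RNA of paraspeckles, rose by 1.61 in HEK293T and fell by 1.94 in liver bud progenitors, and Neat1 fell by 1.77 in mESC. MALAT1, of nuclear speckles, had 278 and 288 CPM in HEK293T P-bodies and 279 and 252 in cytoplasm, which overlap, with a log2 change of 0.22 ± 0.06. In liver bud progenitors it had 752 and 686 against 1502 and 1446, a log2 change of -0.85 ± 0.05. In neurons MALAT1 changed by -1.21 ± 0.12, and NEAT1 changed by 0.33 ± 0.18 and was not called (edgeR adjusted p = 0.197). Malat1 in mESC changed by 0.22 in the edgeR fit. Between 1 and 5 of these RNAs were at 0 in each human library. The part of nuclear RNA in the level of the 45S sum was not tested.

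**Figure D5:**
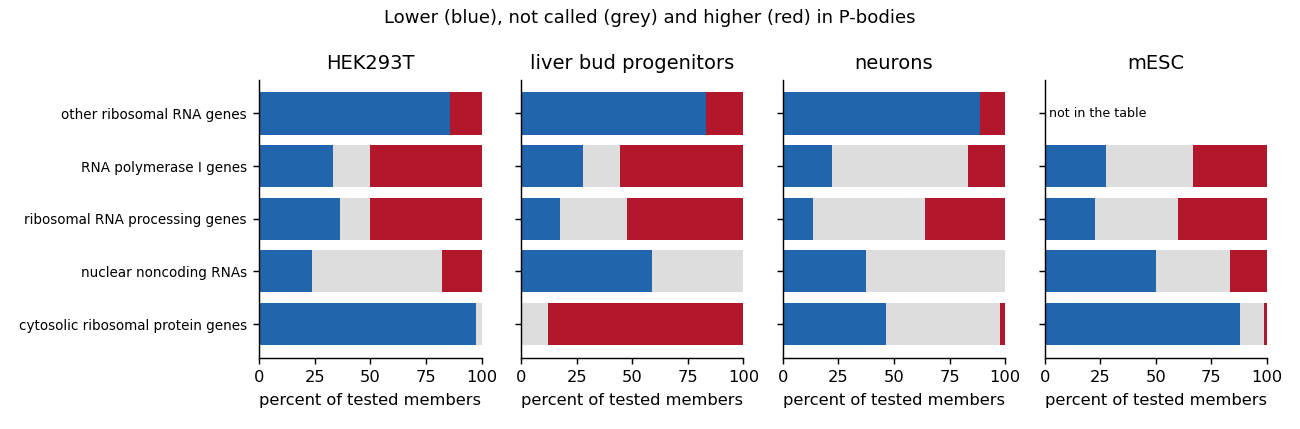
Share of the tested members of each supporting list called lower (blue), not called (grey) and called higher (red) in P-bodies, in percent, for the 4 cell types. The ribosomal protein genes are nearly all blue in HEK293T and mostly red in liver bud progenitors.

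The genes whose pattern over the 12 human libraries was most like that of the 10 copies summed were KIAA0100, FKBP8, SERINC2, SHISA5 and WNK1. Their Pearson correlations on log2 CPM outside ribosomal RNA ran from 0.982 (WNK1) to 0.990 (KIAA0100), among 7456 genes averaging 20 CPM or more, whose median correlation was 0.0219. This is a description, since the 12 points share 3 cell types and a library preparation each.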

How the data were processed

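Tables of whole-number counts per gene, for 12 human libraries and for 4 mouse libraries, were used as the authors deposited them. Genes under 10 counts in total are not in them. The study's methods aligned total RNA libraries to hg38 or mm10 and took counts from salmon, which divides reads among rows they fit, and aligned polyA libraries with HISAT2 and counted them with featureCounts. The tables do not say which route made the polyA columns. The submitters' processing notes name DESeq2, hg38 and mm10.

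Fractions were compared within a cell type with edgeR 4.0.16 (quasi-likelihood test, TMM, genes with at least 1 count, no covariate) on 4 libraries, in a table of single copies and in a table in which each class was summed, with Benjamini-Hochberg adjustment over all rows and a threshold of 0.05. Neurons and liver bud progenitors were compared over 8 libraries. Standard errors were taken from the quasi-likelihood F statistic. Shares were tested by exact permutation within cell types. Alternatives were DESeq2 1.42.0, RLE factors, totals only, TMM without ribosomal RNA genes, filterByExpr, all human libraries in a single fit, a replicate block and leaving out each library. The scripts were tested on simulated data. Named genes were all members and, of each list, at most 2 called genes per direction and cell type, those of smallest p that averaged 20 CPM or more. MALAT1 in liver bud progenitors and in neurons, NEAT1 in neurons and HHEX were named outside that rule, after their values were seen. Lars2, Mir6236, RNA5-8SN2 and RNA5S4 were also named outside it. The members and lists were chosen with earlier results of these data known.

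Positions of the copies were taken from RefSeq genes and their sequences from hg38. GENCODE transcripts were searched for stretches shared with ribosomal RNA. No mm10 genome was used here, so Rn45s has no sequence or position. Columns of every library were mapped to their labels, and 0 were left over. The authors' own tables of fold changes and p-values between fractions were not used. Intervals from counting were not printed, since replicates differed by more than counting error.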

Additional observations from a re-analysis of the deposited data

Results flagged for a closer look

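The P-body change of the 28S sum differed between neurons and liver bud progenitors by a log2 difference of -0.72, and that of the 18S sum by -0.60, each past the threshold in the test of the interaction (edgeR adjusted p = 1.12e-04 and 0.00117). Every neuron and liver bud P-body library had a lower share of both than its cytoplasm, so the difference is in size and not in direction. With scaling by totals the difference for the 28S sum was -0.25 and did not pass (edgeR adjusted p = 0.0709). No other scaling was tried for that of the 18S sum.

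The log2 ratio of the 28S sum to the 45S sum, P-body minus cytoplasm, was -1.22 in HEK293T, 2.44 in liver bud progenitors and 2.13 in neurons. It is listed because both P-body libraries of HEK293T lay below both of its cytoplasm libraries, while those of the other cell types lay above theirs. This difference in direction was not tested. HEK293T libraries were made from total RNA and the others from polyA RNA, and cell type and library preparation cannot be told apart. How reads of the mature parts were divided between the 45S and 28S rows also enters this ratio and was not tested. With 2 libraries a group, no single library could be tested as standing apart.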

How the results depend on the processing

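With 2 libraries a group the tests rest on the spread that edgeR shares among genes, and with 1 library left out the lone library of a group is assumed to vary like the other group. The log2 changes of the 6 human class sums and of Rn45s kept their direction under each alternative tried. All kept their call as well, except that the single copy with the highest change in the 28S class of neurons was not called (-0.96). Leaving out each library in turn gave -1.04 to -0.60 (HEK293T), -3.06 to -2.67 (liver bud progenitors) and -3.41 to -2.89 (neurons) for the 45S sum, -2.10 to -2.02, -0.47 to -0.38 and -1.15 to -0.87 for the 28S sum, and -1.43 to -1.21 for Rn45s.

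Between neurons and liver bud progenitors, scaling by totals turned the 45S difference in P-body change to 0.082 and weakened that of 28S to -0.25. Leaving out libraries gave -0.64 to -0.0845 for the former and -0.86 to -0.55 for the latter. Within P-bodies the 28S difference turned to 0.0233 with scaling by totals, 0.0048 with TMM without ribosomal RNA genes and 0.0465 with filterByExpr, and ran from -0.21 to 0.0342 with libraries left out. Summing the 18S copies as well, an alternative chosen after seeing the data, moved the median of all genes by 0.11 in this comparison.

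The permutation over cell types cannot pass with 2 cell types. Without HEK293T, liver bud progenitors or neurons the mean log2 difference was -3.00, -1.97 and -2.00 for 45S, -0.72, -1.51 and -1.39 for 28S and -0.79, -1.52 and -1.45 for both.

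Copies called lower numbered 6 in HEK293T and 6 in liver bud progenitors in the single fit, and 5 in neurons with DESeq2. RNA28SN5 in liver bud progenitors ran from -0.63 to 0.0774 and RNA28SN3 in neurons from -6.11 to 0.0216 with libraries left out. Over all single genes and list directions, 677 alternatives left the result as it was, 23 ended a call, 4 made one, 43 moved a count of called genes by over 1.5 times and 2 turned the direction of a copy. Other ribosomal RNA genes called in neurons numbered 5 with DESeq2 and 5 with filterByExpr. Ribosomal protein genes called in neurons ran from 21 to 47 with a library left out. Polymerase I genes called in mESC numbered 6 with DESeq2 and 7 to 10 with a library left out.

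Same-numbered libraries deviated together with a correlation of -0.08 to 0.13 across genes in the 4 cell types, so that they share only a number. With the number as a replicate block the changes of the class sums kept direction and call, and copies called lower numbered 10 in HEK293T, 10 in liver bud progenitors and 9 rather than 8 in neurons, where RNA28SN3 had -3.00 and was called.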
